A study of Mus musculus with 5 samples.

Results

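Photoreceptor fate transcription factors are the regulators that turn a dividing retinal progenitor into a rod or a cone and keep the mature cell in that state. The set described here was named gene by gene and held 9 of the 33636 rows of the count table, which were Otx2, Rax, Prdm1, Crx, Neurod1, Nrl, Nr2e3, Esrrb and Mef2d. Each symbol had a single row, and all 9 passed the count filter that left 17432 genes for testing. RNA was extracted from retinas of wild-type male C57BL6/J mice at P42 and sequenced after poly-A enrichment. The right eye had worn a head-mounted diffuser goggle since P28, for 2 weeks, which blurs the image and drives the eye towards form-deprivation myopia (FDM). Each mouse's other eye, without a goggle, gave the control retina, so both groups shared genotype, housing and the head mount. The tables held 2 FDM libraries and 3 control libraries, each from the retina of a single eye. FDM 1 and Control 1 were eyes of mouse 1, FDM 3 and Control 3 were eyes of mouse 3, and Control 2 had no partner in the tables. The second FDM library carried the number 2 in its title and the number 3 in the count table and in the sequencing metrics of the study, and the latter number was used. The labels gave refractive errors at P42 of 0.976 and 0.2745 D in the FDM eyes, below the 2.4455, 3.1505 and 2.465 D of the control eyes.

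Photoreceptor identity is set by a short cascade. Otx2 starts it, together with the eye-field homeobox gene Rax, and Prdm1 holds the young cell on the photoreceptor path by repressing bipolar genes. Crx, a close relative of Otx2, then switches on the genes of the outer segment and of phototransduction in rods and cones alike. Nrl directs the cell to the rod fate and activates Nr2e3, which represses cone genes in rods. Neurod1, Mef2d and Esrrb act in the maturing and adult cell, Neurod1 in cone opsin choice and survival, Mef2d as a partner of Crx at enhancers, and Esrrb downstream of Nrl in rod survival.

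The estimated counts of the libraries summed to between 40599047 and 56534931. Levels are given as CPM (a count as a share of the library, times 1e6), scaled to the library total and a TMM factor that corrects for composition. In these bulk samples, a lower number of photoreceptors and less RNA in each of them cannot be told apart. The retina was identified by its rod genes, with a summed level of 32 genes between 87914 and 108961 CPM. Other tissues differed between the libraries. The summed level of 15 markers of the retinal pigment epithelium (RPE), the pigmented layer behind the retina, was 139, 130 and 136 CPM in FDM 1, FDM 3 and Control 1, against 401 CPM in Control 2 and 412 CPM in Control 3, and none of the 15 was at 0 in any library. Rpe65, the RPE isomerase of the visual cycle, was at 5.49, 4.51, 5.36, 27.9 and 23.6 CPM in FDM 1, FDM 3, Control 1, Control 2 and Control 3. Kcnj13, a potassium channel of the RPE, stood at 0.60, 0.54, 1.15, 5.61 and 3.73 CPM in that order. The 19 lens markers found summed to 2451 CPM in FDM 3 and to between 4.41 and 40.9 CPM in the other libraries, with 3 markers at 0 in FDM 1 and 3 in Control 1, and crystallin Cryaa alone reached 978 CPM in FDM 3. The 10 muscle markers summed to 84.7 CPM in Control 3 and to between 10.3 and 11.7 CPM elsewhere, with 2 or 3 of them at 0 in FDM 1, FDM 3 and Control 1, and the highest of them in Control 3 were Myl1 at 12.4 CPM and Ckm at 12.0 CPM, myosin light chain and creatine kinase of muscle. The 5 blood markers summed to between 33.0 and 47.6 CPM, with Hbb-bs, a beta globin, the highest. At the unadjusted threshold used for the 9 genes (p under 0.05 in edgeR), 8 of 15 RPE markers were lower in FDM eyes. Of 18 lens markers tested, 14 were higher, and 0 of 5 muscle and 0 of 5 blood markers tested were called. Over all genes tested, 1.16% were called lower and 0.453% higher. These calls did not hold for every eye of a group. The lens sum of FDM 1 (4.52 CPM) was below those of Control 2 (40.9 CPM) and Control 3 (14.3 CPM). The RPE sum of Control 1 lay between those of the FDM eyes.

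The stretch of DNA upstream of each gene is a place where these factors can act on each other. Enhancers further away were not searched. RefSeq entries for GRCm38.p6 matched 8 of the 9 genes, Rax not among them, with several start sites for Otx2 and Esrrb. In the 250 bases before each start, both strands were searched for TAATCC, the core bound by the Crx and Otx2 homeodomains, for TAATTA, the core bound by Rax-like homeodomains, for TGCTGAC, the half-site of Nrl and other Maf proteins, for the E-boxes CAGATG and CAGCTG of bHLH factors such as Neurod1, and for AGGTCA, the half-site of many nuclear receptors. Sequences are shown for the upstream windows of the rod pathway genes Crx, Nrl and Nr2e3 and for the Otx2 start site with the most matches, the latter chosen from 4 Otx2 windows because it held most matches, since these genes carry the cascade from its start to the rod fate. Capitals mark a match on either strand (TAATCC reads GGATTA on the other strand), and each sequence runs 5′ to 3′ towards the start site on the minus strand.
Crx, chr7:15879956-15880205: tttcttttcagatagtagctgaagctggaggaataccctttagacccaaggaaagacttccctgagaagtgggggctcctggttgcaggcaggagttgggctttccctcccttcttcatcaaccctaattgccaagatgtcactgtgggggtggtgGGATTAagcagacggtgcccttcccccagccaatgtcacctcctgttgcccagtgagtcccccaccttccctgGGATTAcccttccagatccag
Nrl, chr14:55524253-55524502: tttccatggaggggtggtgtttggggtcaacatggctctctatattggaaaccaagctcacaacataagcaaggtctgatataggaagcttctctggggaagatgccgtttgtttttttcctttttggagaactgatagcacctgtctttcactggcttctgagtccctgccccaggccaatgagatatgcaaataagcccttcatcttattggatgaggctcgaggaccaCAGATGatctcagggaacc
Nr2e3, chr9:59950080-59950329: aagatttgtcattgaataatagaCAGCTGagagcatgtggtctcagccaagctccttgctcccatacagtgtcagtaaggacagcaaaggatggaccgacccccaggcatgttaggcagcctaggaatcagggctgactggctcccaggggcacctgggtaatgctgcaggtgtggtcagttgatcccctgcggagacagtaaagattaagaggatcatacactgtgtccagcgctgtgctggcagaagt
Otx2, chr14:48665110-48665359: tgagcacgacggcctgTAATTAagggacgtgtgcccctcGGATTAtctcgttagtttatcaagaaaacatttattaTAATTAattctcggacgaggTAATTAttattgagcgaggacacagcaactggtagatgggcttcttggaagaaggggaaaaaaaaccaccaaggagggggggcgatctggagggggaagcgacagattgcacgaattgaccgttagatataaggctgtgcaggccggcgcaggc
The Crx window held TAATCC at 94 and at 21 bases before the start, and the Otx2 window held it once, 211 bases before the start, beside TAATTA at 234, 174 and 154. Among all 32851 promoter windows of the same length, 6.25% held TAATCC and 4.84% held TAATTA. Nrl carried CAGATG 19 bases before its start, a motif in 14.4% of windows, and Nr2e3 carried CAGCTG at 227, a motif in 13% of windows. TGCTGAC, which 3.81% of windows held, and AGGTCA, which 14% held, were in none of the windows of the 8 genes. Other matches among the 12 windows were TAATTA 141 and CAGATG 59 bases before other Otx2 starts and CAGCTG 235 bases before a second Esrrb start, and 5 windows, those of Neurod1, Mef2d and Prdm1, the first of Esrrb and a further one of Otx2, held no match. These letters are a description of the windows and not of binding.

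Per length, Crx stood highest of the 9 genes and Prdm1 lowest. Dividing by the joined length of all annotated exons, Crx had 365 ± 21.3 CPM per kilobase (SD, n = 2) under the goggle and 371 ± 27.0 (SD, n = 3) in the uncovered eyes. Nrl followed at 290 ± 8.70 and 298 ± 26.8 CPM per kilobase, then Nr2e3 at 188 ± 30.3 and 196 ± 34.6. Neurod1 stood at 169 ± 2.71 and 163 ± 8.74 CPM per kilobase, Mef2d at 94.3 ± 5.87 and 93.6 ± 8.78, and Esrrb at 81.1 ± 12.7 and 76.2 ± 21.6. Otx2, Rax and Prdm1 closed the order, with control levels of 53.0 ± 2.29, 18.3 ± 1.85 and 3.29 ± 0.479 CPM per kilobase. The libraries of Nr2e3 and Neurod1 overlapped in this order, as did those of Mef2d and Esrrb and those of Esrrb and Otx2, and the other neighbours did not overlap in any of the 5 libraries. Taking the longest transcript as the length exchanged the ranks of Mef2d and Esrrb. Prdm1, the lowest, still had a mean CPM above that of 49.0% of the genes tested.

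**Figure D1:**
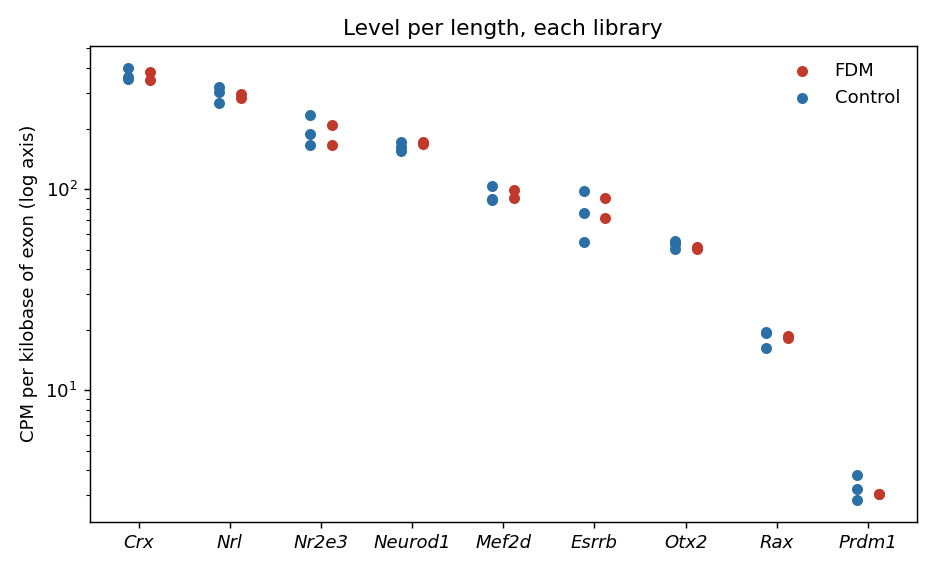
Level of each gene in CPM per kilobase of joined exons on a log axis, with 1 point for each library (FDM red, control blue). Crx lies between 350 and 402 in the 5 libraries and Prdm1 between 2.85 and 3.80, and the red and blue points of every gene overlap.

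No gene of the set passed the test between the groups. In the quasi-likelihood test of edgeR, 0 of the 9 genes had an unadjusted p under 0.05, the threshold of the study, where 1.61% of all genes tested did, 0.453% higher and 1.16% lower in FDM eyes. Every one of the 9 had an adjusted p = 1.0 from edgeR. DESeq2's Wald test called 0 of the 9 as well, where it called 0.987% of all genes tested. The log2 fold change was below 0 in 5 genes and above 0 in 4, with a median of -0.02 over the 9 genes and -0.01 over all genes tested. For all 9 genes the FDM and control levels overlapped, while 10.6% of the genes tested had groups that did not overlap. The 95% intervals of the differences ran at their widest from 0.735-fold for Nr2e3 to 1.54-fold for Esrrb. Those of 8 genes lay within 1.5-fold in either direction. With 2 and 3 libraries, these intervals rest on the spread between single eyes and on spread borrowed from other genes. The fit treats the eyes of the same mouse as independent.

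**Figure D2:**
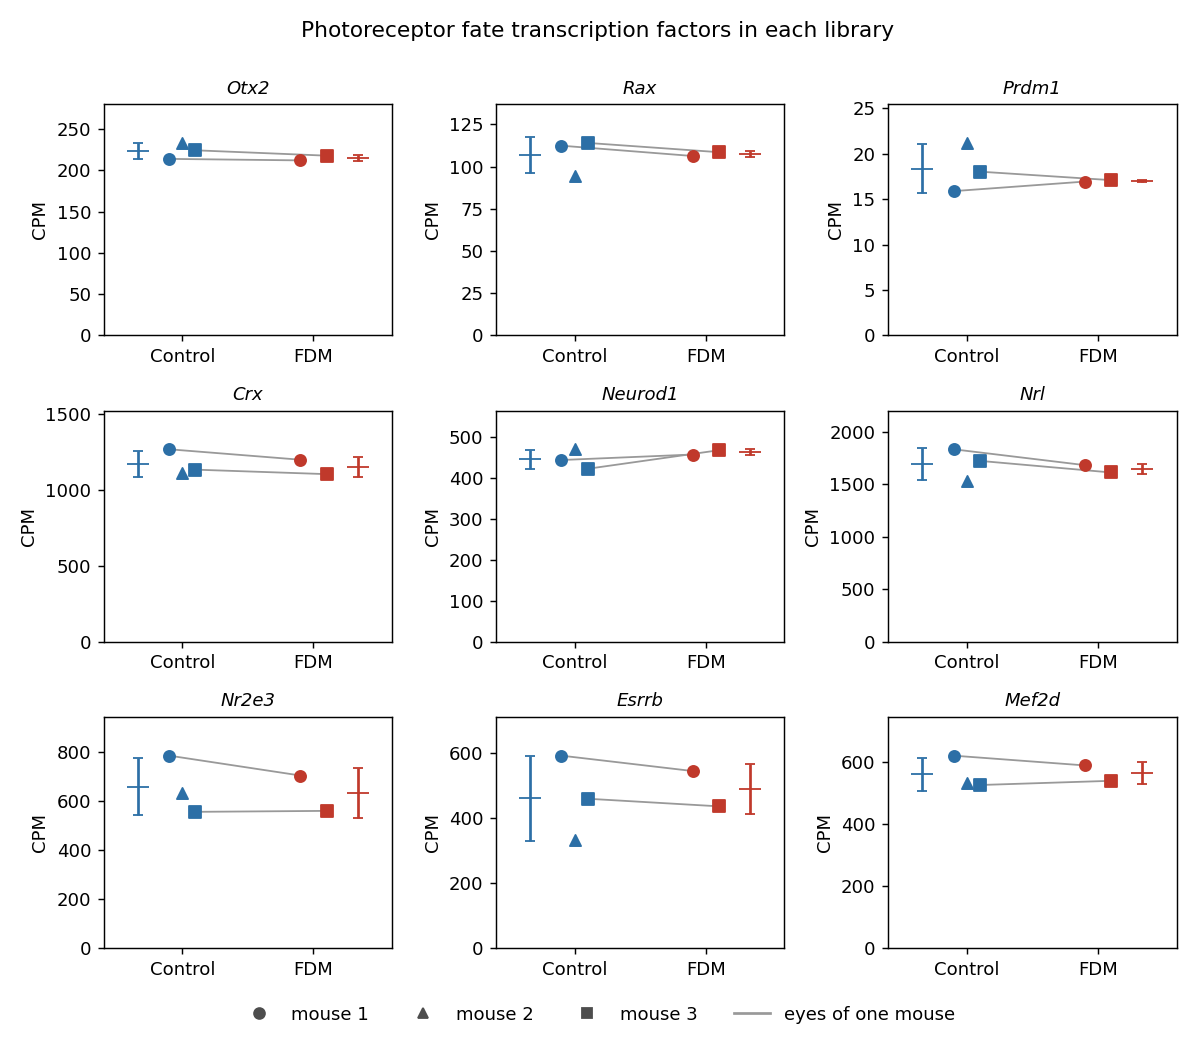
Level of each gene in CPM from 0, with 1 point for each library (FDM red, control blue), shaped by mouse, a grey line between the eyes of one mouse, and the mean ± SD of each group beside the points. FDM and control points overlap in all 9 panels, and the lines of mouse 1 and mouse 3 lie apart for Nr2e3 and Esrrb.

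The genes that begin the cascade were measured first. Otx2, the homeobox gene required for photoreceptor and bipolar cells and expressed in the RPE as well, spans positions 48657677 to 48673819 of chromosome 14 (GRCm38). Its estimated counts of 9190 (FDM 1), 10471 (FDM 3), 8537 (Control 1), 13293 (Control 2) and 10648 (Control 3) gave 212, 218, 214, 233 and 224 CPM. Control 2 and Control 3 were the highest, and Control 1 lay between the FDM eyes. Its log2 fold change was -0.06 (95% interval -0.25 to 0.13, edgeR). The libraries with the highest Otx2 were those with the high RPE marker sums of 401 and 412 CPM, and the part of RPE RNA in its level was not tested.

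Rax, which marks the early eye field and persists in photoreceptors and Müller glia, had 4609 and 5222 counts in FDM 1 and FDM 3, and 4489, 5392 and 5417 in Control 1 to Control 3. These are 106, 109, 112, 94.6 and 114 CPM, with Control 2 the lowest and both FDM eyes between the controls. The log2 fold change was 0.01 (95% interval -0.24 to 0.25, edgeR). In the annotation, 27.4% of its exon bases are also exons of Raxos1 on the opposite strand. No source used here says that the counting used the strand, and Raxos1 had no row in the table used here, so reads of the pair may share the Rax count.

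Prdm1 (chromosome 10, 44437177 to 44528501), the repressor that keeps young photoreceptors from becoming bipolar cells, had only 734, 822, 634, 1208 and 856 counts in the same order, which is 16.9, 17.1, 15.9, 21.2 and 18.0 CPM. Control 2 was the highest and Control 1 the lowest, with the FDM eyes close together between them. A log2 fold change of -0.11 (95% interval -0.42 to 0.19, edgeR) was the furthest from 0 among the 9 genes. With Control 2 left out it was 0.01.

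Crx (chromosome 7, 15865947 to 15879968) had 52073 and 53197 counts in the FDM eyes of mice 1 and 3, and 50712, 63388 and 53933 in the control eyes of mice 1, 2 and 3. In CPM these were 1201, 1106, 1270, 1112 and 1136. Both eyes of mouse 1 were the highest, and FDM 3 was the lowest by a small margin. Its log2 fold change was -0.02 (95% interval -0.25 to 0.20, edgeR). No run of 31 bases was shared between the transcripts of Crx and those of its relative Otx2.

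Neurod1 (chromosome 2, 79452521 to 79456751), a bHLH factor of photoreceptors and of some amacrine cells, had 19820 and 22493 counts in FDM 1 and FDM 3, and 17719, 26796 and 20058 in Control 1 to Control 3. At 457, 468, 444, 470 and 422 CPM it was, with Otx2, the steadiest gene of the set, with a coefficient of variation of 4.34% over the 5 libraries against 3.92% for Otx2. Control 2 and FDM 3 stood highest. The log2 fold change was 0.05 (95% interval -0.14 to 0.25, edgeR). In part, its exons are also those of Cerkl (7.37% of its exon bases), which had between 716 and 1229 counts.

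Nrl (chromosome 14, 55518978 to 55524981), the leucine zipper factor without which rod precursors become cones, had the highest CPM of the set. It held 72944, 77562, 73214, 87355 and 81834 counts in FDM 1, FDM 3, Control 1, Control 2 and Control 3, or 1683, 1613, 1834, 1532 and 1723 CPM. Control 1 and Control 3 were above both FDM eyes and Control 2 below them. Its log2 fold change was -0.04 (95% interval -0.28 to 0.20, edgeR).

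Nr2e3 (chromosome 9, 59942771 to 59960659), the orphan nuclear receptor that silences cone genes in rods, had counts of 30525 (FDM 1), 26927 (FDM 3), 31352 (Control 1), 36185 (Control 2) and 26400 (Control 3). As CPM these were 704, 560, 785, 635 and 556, so that the eyes of mouse 1 were highest, those of mouse 3 lowest and Control 2 between. The group means, 632 ± 102 CPM under the goggle (SD, n = 2) and 659 ± 117 CPM without it (SD, n = 3), were closer to each other than the libraries within either group. The log2 fold change of -0.06 had a wide interval (95% interval -0.44 to 0.33, edgeR), and it was -0.23 without FDM 1 and 0.096 without FDM 3.

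Esrrb (chromosome 12, 86361117 to 86521628), an orphan nuclear receptor that sustains rods, varied most. Its counts were 23617, 20976, 23641, 18892 and 21823, and its CPM 545, 436, 592, 331 and 460, in FDM 1, FDM 3, Control 1, Control 2 and Control 3. The highest library was 1.79 times the lowest, with a coefficient of variation of 21.4%, where the counting error of its lowest count was 0.728%. Control 2 alone lay below all the others. The log2 fold change of 0.09 (95% interval -0.44 to 0.62, edgeR) became -0.09 without Control 2 and -0.08 without FDM 1.

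Mef2d (chromosome 3, 88142372 to 88172086), a MADS-box factor that works with Crx at photoreceptor enhancers, had 25541, 25948, 24782, 30446 and 24976 counts in FDM 1, FDM 3, Control 1, Control 2 and Control 3. Its CPM values of 589, 540, 621, 534 and 526 again placed both eyes of mouse 1 on top. The log2 fold change was 0.01 (95% interval -0.23 to 0.25, edgeR).

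**Figure D3:**
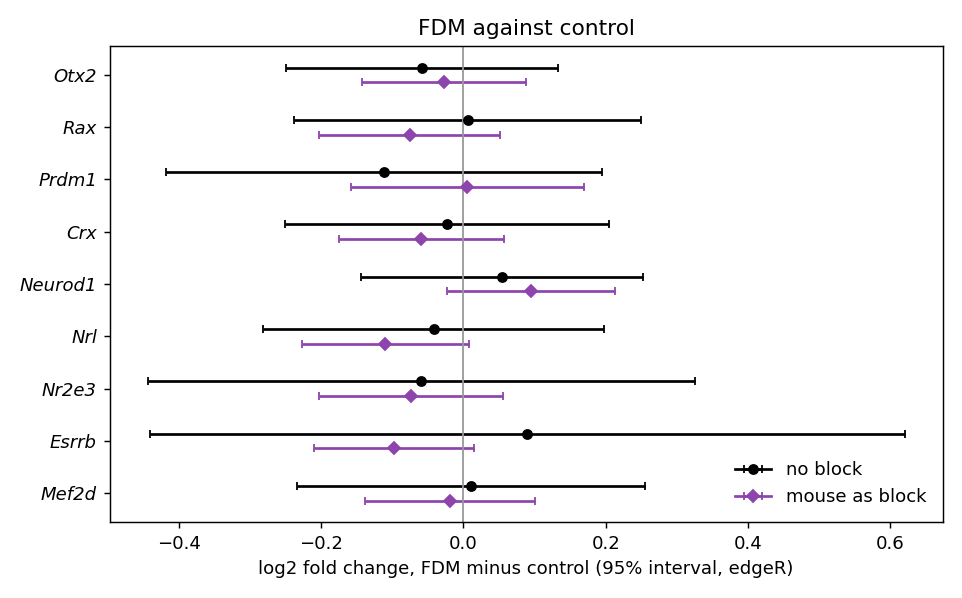
Log2 fold change of each gene, FDM minus control, with its 95% interval from edgeR, without (black) and with (purple) the mouse as a block. Every interval includes 0, the widest without the block being that of Esrrb, and they are narrower with the block.

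Comparing the eyes of one mouse removes the difference between animals, but not a difference in other tissue between the eyes. In mouse 3, the lens sums were 2451 CPM in the FDM eye and 14.3 CPM in the control eye. The RPE sums were 130 and 412 CPM in that order, and the muscle sums 11.7 and 84.7 CPM. Their part in the differences below was not tested. In mouse 1 the FDM eye was lower for 7 of the 9 genes and in mouse 3 for 6, and 5 genes were lower in both mice (Crx, Nrl, Otx2, Esrrb and Rax), where 30.3% of all genes tested were. Otx2 in mouse 1, at -0.01 (-0.05 to 0.03), was within counting error of 0 and took values of 0.0039, 0.0084 and 0.074 with DESeq2 size factors, library totals and the authors' normalized counts, which left 6 genes lower in mouse 1 and 4 lower in both mice under each of these scalings. Nrl was lower in the FDM eye by a log2 difference of -0.12 in mouse 1 (95% interval from counting error only, -0.14 to -0.11) and -0.10 in mouse 3 (-0.11 to -0.08). With library totals the Nrl values were -0.103 and -0.077, outside these intervals, which do not cover the choice of scaling. With the authors' normalized counts they were -0.1255 and -0.0955, inside them. For Esrrb the log2 differences were -0.12 (-0.15 to -0.09) and -0.08 (-0.10 to -0.05), opposite in sign to its fold change between the groups, where Control 2, the library with no partner, entered as well. Neurod1 alone was higher in the FDM eye of both mice, as were 24.7% of all genes tested, with log2 differences of 0.04 (0.01 to 0.07) and 0.15 (0.12 to 0.17). Nr2e3 was lower in mouse 1, at -0.16, and within counting error of 0 in mouse 3, at 0.01 (-0.01 to 0.03). Mef2d and Prdm1 also took opposite signs in the mice, and the Prdm1 intervals included 0 in both. These intervals hold no spread between animals.

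With the mouse as a block in edgeR, the share of genes called over the whole table was 7.23%, and 0 of the 9 genes were among them. Nrl came nearest, with a log2 fold change of -0.11 (95% interval -0.23 to 0.01, adjusted p = 0.695 from edgeR). Esrrb had -0.10 (95% interval -0.21 to 0.01, adjusted p = 0.703 from edgeR) and Neurod1 0.10 (95% interval -0.02 to 0.21, adjusted p = 0.718 from edgeR). The median over the 9 genes was -0.06, against -0.01 over all genes tested. This fit leaves 1 residual degree of freedom and relies on the spread borrowed from other genes.

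Mouse 1 and mouse 3 were then compared with each other. This comparison was added after the levels had been seen. The difference between the mean of mouse 1 and that of mouse 3 was larger than both within-mouse differences for 6 of the 9 genes. Over all genes tested the share was 30.1%, without matching for level. Even Prdm1, the lowest of the 9 genes, had a mean CPM above that of 49.0% of genes tested. Both eyes of mouse 1 were above both eyes of mouse 3 for 4 genes, Crx, Nr2e3, Esrrb and Mef2d, as for 23.5% of genes tested, and below them for 2, Otx2 and Prdm1, as for 21.3%, or 44.8% in either direction. Nr2e3 was at 745 CPM on average in mouse 1 and 558 in mouse 3, a log2 difference of 0.40, and Esrrb at 568 and 448 CPM, a log2 difference of 0.33. Mef2d and Crx followed at log2 differences of 0.17 and 0.13. The other genes counted among the 6 differed little, Otx2 by -0.06 and Prdm1 by -0.11. Within mouse 1, the Prdm1 difference was 0.09, with a counting interval that included 0. Nrl, the activator of Nr2e3 and Esrrb, was at 1758 and 1668 CPM, a log2 difference of 0.06. Each side is a single animal, so these differences are given with no test. Both libraries of mouse 3 also carried other tissue, with a lens sum of 2451 CPM in FDM 3 and RPE and muscle sums of 412 and 84.7 CPM in Control 3, where in FDM 1 and Control 1 the lens sums were 4.52 and 4.41, the RPE sums 139 and 136 and the muscle sums 10.4 and 10.3 CPM. Their part in the differences was not tested.

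**Figure D4:**
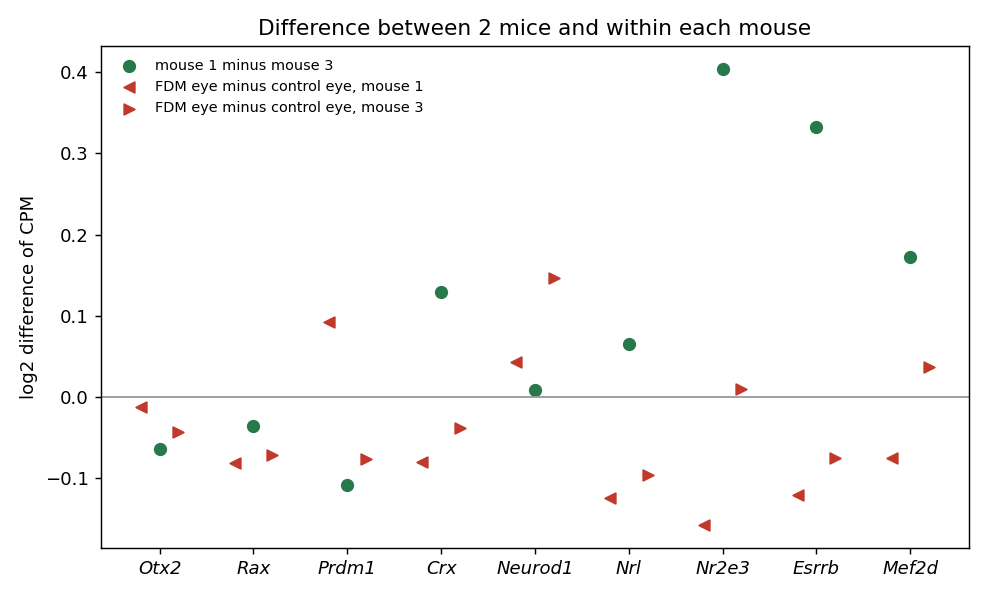
Log2 difference of CPM between mouse 1 and mouse 3 (green points) and between the FDM and control eye of mouse 1 and of mouse 3 (red triangles). For Nr2e3 and Esrrb the green points, at 0.40 and 0.33, lie further from 0 than either red triangle.

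Ratios within a library do not depend on its scaling. They come from the same counts as the differences above, so they are no separate evidence of a division between the mice. Nr2e3 counts were 0.418 and 0.428 of Nrl counts in FDM 1 and Control 1, 0.347 and 0.323 in FDM 3 and Control 3, and 0.414 in Control 2. For Esrrb to Nrl the ratios were 0.324 and 0.323 in the eyes of mouse 1, 0.270 and 0.267 in those of mouse 3, and 0.216 in Control 2. Only the ratios given here were computed. Among them, Mef2d to Crx was the steadiest, between 0.463 in Control 3 and 0.490 in FDM 1. Nrl to Crx ran from 1.38 in Control 2 to 1.52 in Control 3. Crx to Otx2 was 5.67 in FDM 1 and 5.94 in Control 1, above the 5.08, 5.07 and 4.77 of FDM 3, Control 3 and Control 2.

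A list of further photoreceptor regulators, holding other transcription factors, coregulators and nuclear receptors, was examined in the same way. All 31 genes of the list were tested, and edgeR and DESeq2 called 0 of them at the unadjusted threshold, with 14 log2 fold changes above 0 and 17 below and a median of -0.01. Samd11, a polycomb-associated regulator, was the highest at 620 and 613 CPM in FDM and control eyes. Rorb, the nuclear receptor upstream of Nrl, followed at 329 and 298 CPM, and Casz1 at 326 and 294 CPM. The value furthest from 0 was that of Vax2, a dorsoventral homeobox gene, at -0.29 (standard error 0.19, edgeR). In the blocked fit, 4 of the 31 passed the unadjusted threshold, all higher in FDM eyes, where 3.57% of all genes tested did. They were Onecut1 at a log2 fold change of 0.62, Thrb, the receptor that patterns cone opsins, at 0.19, Atxn7 at 0.19 and Ep300 at 0.16, with adjusted p of 0.508, 0.654, 0.619 and 0.619 from edgeR. In the fit without the block their log2 fold changes were -0.01, 0.01, 0.01 and 0.06.

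The genes that the cascade switches on were then compared. Of 32 rod genes, 0 were called in edgeR or in DESeq2, with 12 log2 fold changes above 0 and 20 below and a median of -0.01. Gnat1, rod transducin, was at 12165 and 12354 CPM in FDM and control eyes, and Prph2, a disc rim protein, at 5792 and 5864. Rdh12, a retinal reductase, had the log2 fold change furthest from 0, at -0.14 (standard error 0.09, edgeR). In the blocked fit, 10 of the 32 were lower and 1 higher at the unadjusted threshold, where 3.67% and 3.57% of all genes tested were, and 0 passed adjustment. Beside this count stand the lens sum of FDM 3 (2451 CPM) and the RPE sum of Control 3 (412 CPM), whose part was not tested. Gnat1, at -0.15 (adjusted p = 0.635 from edgeR), and Rbp3, the retinoid carrier between photoreceptors and RPE, at -0.16 (adjusted p = 0.603 from edgeR), were among the lower, and Rp1, a protein of the axoneme, was the higher one at 0.13 (adjusted p = 0.682 from edgeR).

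Among 11 cone genes, which Nr2e3 represses in rods, 0 were called in edgeR and 1 in DESeq2, where DESeq2 called 0.987% of all genes tested, with a median log2 fold change of 0.02. Opn1sw, the short-wavelength opsin, was at 508, 366, 455, 498 and 500 CPM in FDM 1, FDM 3, Control 1, Control 2 and Control 3, with FDM 3 alone below the rest, and Gnb3 and Arr3 stood at 443 and 360 CPM in FDM eyes and 411 and 330 in control eyes. Pde6c, the cone phosphodiesterase, was the gene that DESeq2 called. Its levels were 119 and 111 CPM in the FDM eyes against 102, 103 and 104 in the control eyes, groups that did not overlap (as in 10.6% of all genes tested), for a log2 fold change of 0.16 (standard error 0.08, edgeR). With the block, Pde6c (0.16, adjusted p = 0.627 from edgeR) and Gngt2 (-0.15, adjusted p = 0.683 from edgeR) passed the unadjusted threshold, as did 7.23% of all genes tested.

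**Figure D5:**
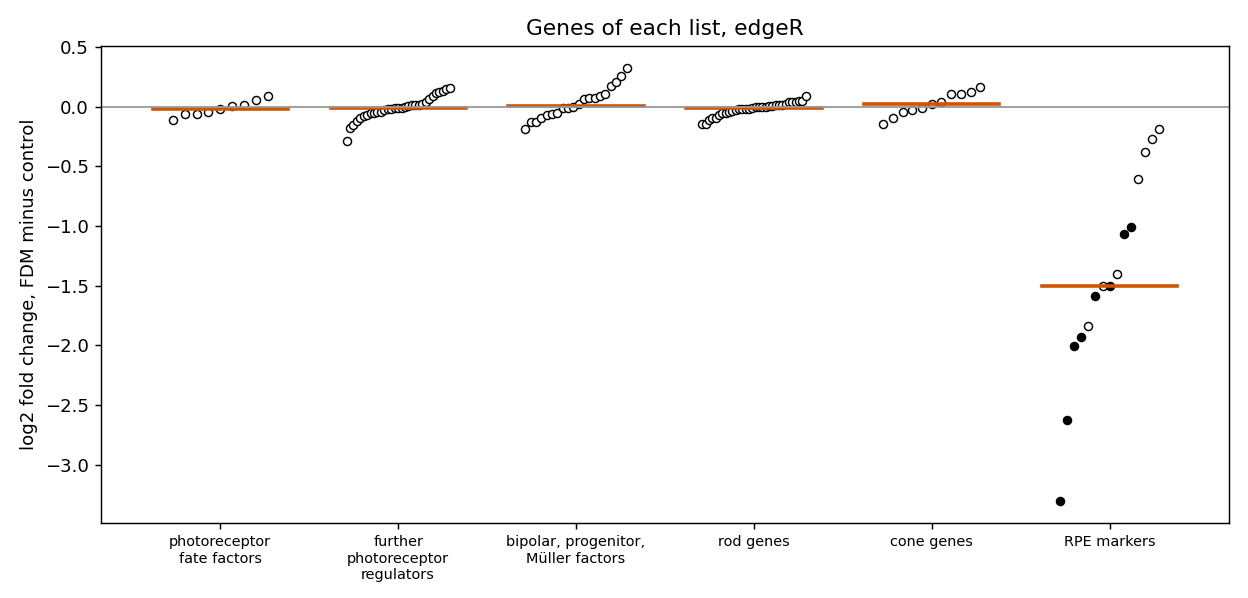
Log2 fold change, FDM minus control, of each gene tested (points, filled where the unadjusted p from edgeR was under 0.05) in 6 lists, with the median of each list as an orange line. The 5 photoreceptor and retinal transcription factor lists have medians between -0.02 and 0.02 and no filled point, and the RPE markers have a median of -1.50 with 8 of 15 filled. Over all genes tested, 1.61% were called at this threshold.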

How the data were processed

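The authors trimmed the reads with Trimmomatic 0.39, quantified transcripts with Salmon 1.10.1 on GRCm38 and deposited estimated counts per gene, which were already whole. A second table deposited by the authors holds a signal, counts normalized with factors that differ between genes as well as libraries (from 0.907 for Rax to 0.978 for Otx2 in FDM 1 relative to Control 1), and served only for alternatives. One FDM library had been left out by the authors for read duplication.

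Genes above 10 counts in 2 or more libraries entered a quasi-likelihood fit (edgeR 4.0.16, R 4.3.3) with TMM factors and group as the only term, and were called at an unadjusted p under 0.05, the threshold of the study. Benjamini-Hochberg values were adjusted over all 17432 genes tested. The standard error was taken from the F statistic of each gene. Within-mouse intervals, and the limit that a count of 0 allows (3 counts, 0.0526 to 0.0751 CPM), cover counting error only. Alternatives were DESeq2 1.42.0, limma 3.58.1 with a trend on log2 of the normalized counts plus 1 or 0.1, other scalings and filters, a block for the mouse, and fits that each lacked a single library. The comparison of mouse 1 with mouse 3 (log2 differences from edgeR on their 4 libraries, treatment in the model) was chosen after seeing the data and is given with no test. The pairing comes from the mouse numbers of the study. Across genes, deviations from the group means correlated at 0.258 within mouse 1 and 0.125 within mouse 3. With 2 FDM libraries, their deviations are equal and opposite. The 2 correlations are therefore not independent and do not test the pairing. The scripts were tested on simulated counts. Gene positions and lengths are from GENCODE M21 (GRCm38).

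The members and lists were chosen with earlier results of these data known. All 9 members are named with every library. Of each further list the genes called, the 3 highest and the one with the fold change furthest from 0 are named, genes called with the block or by DESeq2 were added after their values were seen, and marker lists are given by their sum and their highest gene. Per the study, the libraries of a group come from different mice. In the edgeR fit without the block, p-values rest on the spread between them, with 3 residual degrees of freedom. Spread borrowed from other genes added a median of 4.26 degrees of freedom. That fit treats the eyes of the same mouse as independent. With the mouse as a block, the differences between mice are removed. Its p-values rest on the spread of the within-mouse differences, with 1 residual degree of freedom, and the library with no partner adds nothing to the fold change. Pathway enrichment and proteins were not analysed here. Some of the genes that this rule names are not reported here.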

Additional observations from a re-analysis of the deposited data

How the results depend on the processing

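None of the 9 genes reached an unadjusted p under 0.05 in any of the 16 alternatives, 144 fits of single genes with log2 fold changes between -0.23 and 0.31. Otx2 and Neurod1 kept their direction throughout, and 21 of the 144 values changed sign. With the mouse as replicate block the values that changed sign were -0.019 for Mef2d, -0.098 for Esrrb, 0.0051 for Prdm1 and -0.076 for Rax, and pairing by the title numbers gave -0.030 for Mef2d. Rax was at -0.031 in limma with either pseudocount and at -0.032 with the authors' factors as offsets. Leaving out each library in turn gave -0.085 to 0.039 for Crx, -0.099 to 0.019 for Nrl, -0.23 to 0.096 for Nr2e3, -0.055 to 0.092 for Mef2d, -0.089 to 0.31 for Esrrb, -0.20 to 0.014 for Prdm1 and -0.065 to 0.060 for Rax. The causes were not tested. The number of all genes called was 281 in the fit reported, 172 in DESeq2, 498 with no count filter, 1261 with the replicate block by mouse, 439 with the block by title numbers, and 146 to 946 with each library left out, the lowest without Control 3 and the highest without Control 1, with 170 without FDM 1 and 535 without Control 2. With the block by mouse, 4 of 31 further photoreceptor regulators, 11 of 32 rod genes and 2 of 11 cone genes were called. So were 3 of 20 bipolar, progenitor and Müller glia factors tested, against 0 of each list without the block. Over all genes tested, the share called was 7.23% with that block and 1.61% without it. DESeq2 called 1 of 11 cone genes, where it called 0.987% of all genes tested. The block changed no call of the 9 genes. The longest transcript in place of the joined exons changed the rank of 2 genes. Of 54 within-mouse values recomputed under other scalings, 45 stayed inside their counting interval, and Otx2 in mouse 1 changed sign under all 3 scalings. The lowest count of the set was 634, with a counting error of 3.97%.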

Other observations

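Transcription factors of bipolar cells, progenitors and Müller glia, the fates that the photoreceptor cascade turns away from, were examined from a list of 22 genes, of which 20 passed the count filter. In edgeR and in DESeq2, 0 of them had an unadjusted p under 0.05, with 10 log2 fold changes above 0 and 10 below and a median of 0.01. Pax6, a homeobox gene of progenitors, amacrine and ganglion cells, was the highest, at 343 CPM in FDM and 391 in control eyes. Six3, another homeobox gene of progenitors, was at 136 and 137 CPM in FDM and control eyes. Hes5, a Notch target, had the log2 fold change furthest from 0, at 0.33 (standard error 0.18, adjusted p = 1.0 from edgeR). With the mouse as a block, Hes5 (0.29) and Sox8 (0.18) were higher and Sox2 (-0.20) lower in FDM eyes at the unadjusted threshold, with adjusted p of 0.619, 0.631 and 0.561 from edgeR. Over all genes tested this fit called 3.57% higher and 3.67% lower. The lens sum of FDM 3 (2451 CPM) and the RPE sum of Control 3 (412 CPM) enter the same fit, and their part was not tested.

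Runs of 31 bases that a transcript of one of the 9 genes shares with a transcript of another gene made up between 0.0331% of its runs, in Esrrb, and 26.4%, in Rax, where most were shared with Raxos1. Neurod1 shared 11.2% of its runs, mainly with Cerkl, and Mef2d 8.27%, almost all with an antisense transcript and none with the other Mef2 genes.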
